A study of Mus musculus with 10 samples.

Results

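The genes described here encode the protein subunits of the mitochondrial ribosome. They were chosen by symbol, as the genes whose platform symbol starts with Mrpl (large subunit) or Mrps (small subunit) followed by a digit. The rule itself uses no difference between groups. Of the 18193 genes measured by a probe set with 1 gene symbol, 76 were members, 47 of the large and 29 of the small subunit. The platform table holds 78 such symbols. Mrpl30 and Mrpl53 lay only on probe sets shared by several genes and were left out. Where a gene had several probe sets, the one with the highest mean over all 10 arrays stood for it.

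Each sample was hybridised to an Affymetrix array of its own, and the 10 samples formed 3 groups. All cells came from the bone marrow of C57BL/6 mice aged 5 to 6 weeks, were depleted of lineage-marked cells and selected for Sca1. After culture with IL-3, IL-6 and SCF they received 2 rounds of MigR1 retrovirus, which carries GFP. Live lineage-negative, Sca1+, cKit+, GFP+ cells were sorted 48 h after the second round, and 25000 cells gave the 50 ng of RNA that went through 2 rounds of amplification. The control group (GFP, 3 arrays) received the vector alone. The AML1/ETO group (3 arrays) received the leukaemia fusion protein that joins the DNA-binding part of AML1 to ETO. The W692A group (4 arrays) received the same fusion with a substitution in the MYND domain of ETO, the domain that binds the corepressors SMRT and N-CoR. Expression in every group was thus driven by a retrovirus in cultured cells. The labels describe independent transductions. They do not tie a transduction to a mouse, so the p-values measure the spread between these samples, which may be partly technical.

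Mitochondria have their own ribosomes, which translate the few messages of mitochondrial DNA, all of them for subunits of the respiratory chain and ATP synthase. The ribosomal RNAs are made inside the organelle. The proteins are all encoded in the nucleus, translated in the cytosol and imported. The large subunit forms the peptide bond and the small subunit reads the message. Some members descend from bacterial ribosomal proteins, and others were acquired by mitochondria.

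Values are log2 intensities, so a difference of 1 is a doubling. Probe sets differ in how strongly they bind, so each gene was compared with itself across groups. Members were ranked by signal only to choose some to name, and that rank was not read as an amount of RNA. A background bound of 2.04 was set at the brightest bacterial control probe set on any array. By their means, 75 of the 76 members lay above it, and Mrpl37 lay below. Over the genes with a mean above the bound the correlation between arrays was 0.982 to 0.992 within a group and 0.887 to 0.962 across groups. The 3′ minus 5′ signal of Gapdh, a sign of RNA or amplification quality, was 4.83 to 4.99 with GFP, 4.01 to 5.04 with AML1/ETO and 3.81 to 4.17 with W692A. The ribosomal RNA control was 7.74 to 8.13 with GFP, below every AML1/ETO array (8.18 to 8.65) and every W692A array (mean 8.76 ± 0.181 SD, n = 4). The labelled spike-in mean was 8.14 to 8.86, 7.77 to 8.36 and 8.04 to 8.79. The Gapdh and spike-in signals were each tried as a covariate, and the part of the ribosomal RNA signal in the results was not tested. Of 13 stem and progenitor genes 12 were above the bound by their means. The exception was Kit, a marker of the sort, which lay below the bound on all arrays. Ly6a, which encodes Sca1, was not analysed here.

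The first comparison asked how the mitochondrial ribosome genes stood in cells with AML1/ETO against cells with the vector. In both subunits a majority of members fell. Of the 47 large subunit genes 24 fell and none rose (limma, Benjamini-Hochberg adjusted p under 0.05). At an unadjusted p under 0.05, 30 were lower and 0 higher. The large subunit majority rested on single arrays: without GFP replicate 3, 16 passed as lower. Of the 29 small subunit genes 17 fell, 1 rose and 11 did not pass. Over all genes tested 15.8% were called lower and 12.9% higher, and among the 8301 genes above the bound 29.9% were called lower and 21.6% higher. The members thus fell in 53.9% of cases, against 29.9% of genes above the bound. The median log2 difference was -0.37 in the large and -0.54 in the small subunit, beside -0.02 over all genes and -0.08 over genes above the bound. In bulk samples, fewer cells of a type and less RNA per cell cannot be told apart.

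The arrays separated in the same way. The mean over the 47 large subunit genes was 6.22, 6.23 and 6.38 on the GFP arrays and 5.87, 5.89 and 5.80 on the AML1/ETO arrays. It was 6.37, 6.38, 6.33 and 6.30 on the W692A arrays. Every AML1/ETO array lay below every array of the other groups, and the GFP and W692A arrays overlapped. The mean over the 29 small subunit genes was 5.78, 5.82 and 5.88 with GFP, 5.27, 5.36 and 5.35 with AML1/ETO, and 5.82, 5.85, 5.82 and 5.77 with W692A. Here too every AML1/ETO array lay below all the others. Gene by gene, 59, 53 and 58 of the 76 members lay below the lowest GFP array on the 3 AML1/ETO arrays, where 43.2% to 45.6% of genes above the bound did so. On the 4 W692A arrays 24, 19, 18 and 24 members lay below the lowest GFP array and 24, 26, 19 and 19 above the highest, where 38.5% to 42.4% of genes above the bound lay below and 28.9% to 30.2% above. All AML1/ETO arrays lay below all GFP arrays for 46 members, where 21.0% of all genes did so, and above them for 1 member, where 18.1% of all genes did so. Of the 8301 genes above the bound, 2894 lay below and 2181 above in this way.

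**Figure D1:**
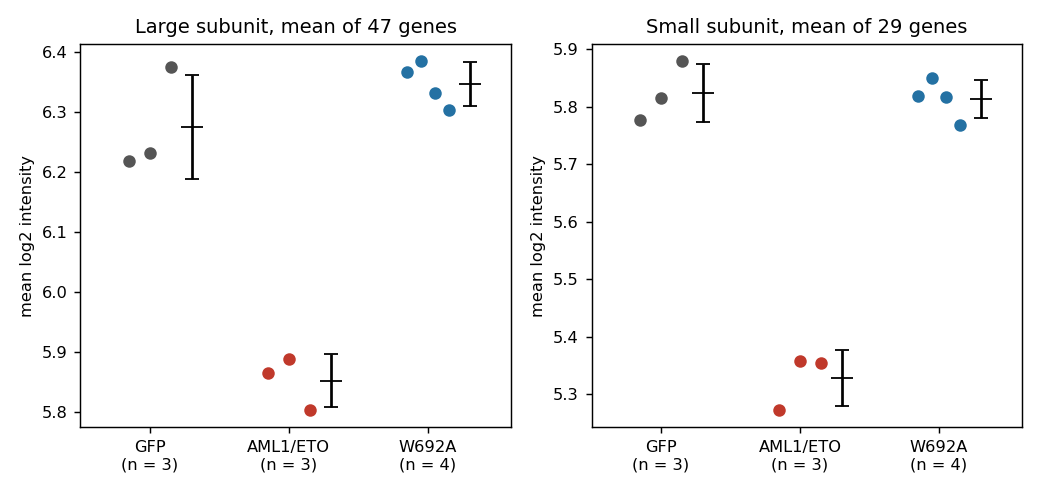
Mean log2 intensity over the 47 large subunit genes (left) and the 29 small subunit genes (right) on each array (points), with the group mean and SD (bars) beside the points. The 3 AML1/ETO arrays sit lowest in both panels, and the GFP and W692A arrays overlap. The y axes do not start at 0.

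By size, 29 of 76 members fell at least 1.5-fold, as did 11.2% of all genes and 22.1% of genes above the bound. At least 2-fold was reached by 5 members, a smaller share than the 9.31% of genes above the bound, beside 4.72% of all genes. Those 5 were Mrpl19, Mrpl49, Mrps26, Mrps22 and Mrps5. Among the members that fell, the log2 difference ran from -1.16 for Mrpl19 to -0.34 for Mrpl35 in the large subunit, and from -1.13 for Mrps26 to -0.44 for Mrps11 in the small subunit.

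Mrpl19, a large subunit protein of a bacterial family, gave 6.83, 6.88 and 6.87 with GFP, 5.34, 5.86 and 5.90 with AML1/ETO, and 6.71, 6.59, 6.49 and 6.44 with W692A. The AML1/ETO arrays were the lowest, with the first of them lower than the other 2. It was 2.23-fold lower with AML1/ETO (log2 difference -1.16 ± 0.146 SE, adjusted p = 2e-05).

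Mrpl49, a protein acquired by the mitochondrial ribosome, gave 5.24, 5.13 and 5.30 with GFP, 4.25, 3.92 and 4.29 with AML1/ETO, and 5.04, 5.09, 4.81 and 4.80 with W692A. Neither the AML1/ETO nor the W692A arrays overlapped the GFP arrays, and the AML1/ETO arrays were lower. It was 2.10-fold lower with AML1/ETO (-1.07 ± 0.134, adjusted p = 1.96e-05). Its other probe set, also above the bound, fell as well (log2 difference -0.69, adjusted p = 0.00118 over all probe sets).

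Members grouped by their place in the ribosome followed the same direction in most cases. These groups were drawn up after the values were seen and carry no test. Mrpl12 forms the flexible stalk of the large subunit, which recruits translation factors, and Mrpl10 and Mrpl11 form its base. Mrpl12 gave 4.80, 4.88 and 5.23 with GFP, 4.10, 4.00 and 3.92 with AML1/ETO, and 4.89, 5.65, 5.10 and 5.00 with W692A. All AML1/ETO arrays were below the rest, and Mrpl12 fell 1.95-fold (-0.97 ± 0.178, adjusted p = 0.000623). Mrpl10 fell less (log2 difference -0.45, adjusted p = 0.0141), and Mrpl11 did not pass (-0.13, adjusted p = 0.576).

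At the rim of the tunnel through which the new peptide leaves, 4 of 6 members fell. They were Mrpl17, Mrpl22, Mrpl23 and Mrpl47, with log2 differences of -0.39, -0.57, -0.85 and -0.66. Mrpl24 did not pass (-0.30, adjusted p = 0.0844). Mrpl45, which holds the ribosome to the inner membrane, had a positive estimate that did not pass (0.21 ± 0.146, adjusted p = 0.358). Its AML1/ETO arrays, at 5.56, 5.43 and 5.05, overlapped its GFP arrays, at 5.20, 4.95 and 5.25.

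In the central protuberance, a lobe of the large subunit, 4 of 5 members fell. Mrpl40 fell by 0.81, Mrpl38 by 0.74, Mrpl18 by 0.71 and Mrpl46 by 0.57 on the log2 scale. Around the peptidyl transferase centre, where the peptide bond is made, Mrpl2 (-0.77) and Mrpl3 (-0.70) fell, and Mrpl16 (-0.09) and Mrpl27 (0.01) did not pass. Genes for neighbouring proteins therefore did not always share a call.

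In the small subunit the largest falls were in both bacterial-family and mitochondrial proteins. Mrps26, found only in mitochondrial ribosomes, gave 7.35, 7.04 and 7.34 with GFP, 5.91, 6.16 and 6.27 with AML1/ETO, and 6.95, 7.03, 6.97 and 6.87 with W692A. The AML1/ETO arrays were the lowest by a wide margin. It was 2.19-fold lower with AML1/ETO (-1.13 ± 0.13, adjusted p = 7.87e-06).

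Mrps22, another mitochondrial protein, gave 6.45, 6.73 and 6.76 with GFP, 5.60, 5.42 and 5.74 with AML1/ETO, and 6.48, 6.65, 6.45 and 6.69 with W692A. Its W692A arrays lay within or at the edge of the GFP range, and its AML1/ETO arrays lay below both. The fall was 2.08-fold (-1.06 ± 0.132, adjusted p = 1.82e-05). Mrps5, near the entry of the message channel, fell 2.02-fold (adjusted p = 6.88e-05), and Mrps2 fell 1.99-fold (adjusted p = 1.35e-05). Mrps35 and Mrps27 fell by 0.92 and 0.79 on the log2 scale.

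Mrps12, at the decoding centre, did not pass (-0.19, adjusted p = 0.301), and neither did Mrps14 (-0.11, adjusted p = 0.743). Mrps14 is also among the members with strong probe sets. Of the others, Mrpl39 fell by 0.37 (adjusted p = 0.016), while Mrpl41 (-0.29), Mrpl57 (-0.41), Mrps6 (-0.30) and Mrps24 (-0.33) did not pass. Further probe sets above the bound were called lower for Mrpl41 (-0.48, adjusted p = 0.00698 over all probe sets) and Mrps24 (-0.58, adjusted p = 0.0104). Those of Mrpl39 (-0.33) and Mrps6 (-0.19) did not pass. The fall of Mrpl39 was lost without AML1/ETO replicate 3 or GFP replicate 3. Mrpl37 and Mrpl54 had dim probe sets. Mrpl37 gave 2.14, 1.86 and 1.81 with GFP and did not pass (-0.11, adjusted p = 0.714). A signal this dim limits how far a fall could show.

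Mrps21, a small subunit protein of a bacterial family, was the 1 member called higher. It gave 5.42, 5.30 and 5.50 with GFP, 6.00, 5.67 and 5.67 with AML1/ETO, and 6.14, 5.95, 6.10 and 6.00 with W692A. The rise of 1.29-fold (0.37 ± 0.125, adjusted p = 0.0362) did not pass without AML1/ETO replicate 1, GFP replicate 1 or GFP replicate 2. With the mean of its probe sets the estimate was -0.02. Of the related Mrps18 proteins, Mrps18b and Mrps18c lie in the small subunit and Mrps18a, by structures, in the large. Mrps18a (-0.50, adjusted p = 0.0386) and Mrps18b (-0.66, adjusted p = 0.00167) fell and Mrps18c (0.09, adjusted p = 0.739) did not pass. The call of Mrps18a was lost when any single AML1/ETO or GFP array, or W692A replicate 4, was left out. Mrps30, also placed in the large subunit by structures, fell by 0.67, and Mrps36, now counted with the oxoglutarate dehydrogenase complex, did not pass (0.12).

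Members were also split by symbol number, at 36 in the large and 21 in the small subunit, as a rough guide to descent. Of the 43 members up to these numbers, which carry names of bacterial families, 24 fell, with a median log2 difference of -0.44. Of the 33 with higher numbers 17 fell, with a median of -0.41. Those 33 are not all specific to mitochondria, and they include Mrps36. The difference between these shares was not tested.

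**Figure D2:**
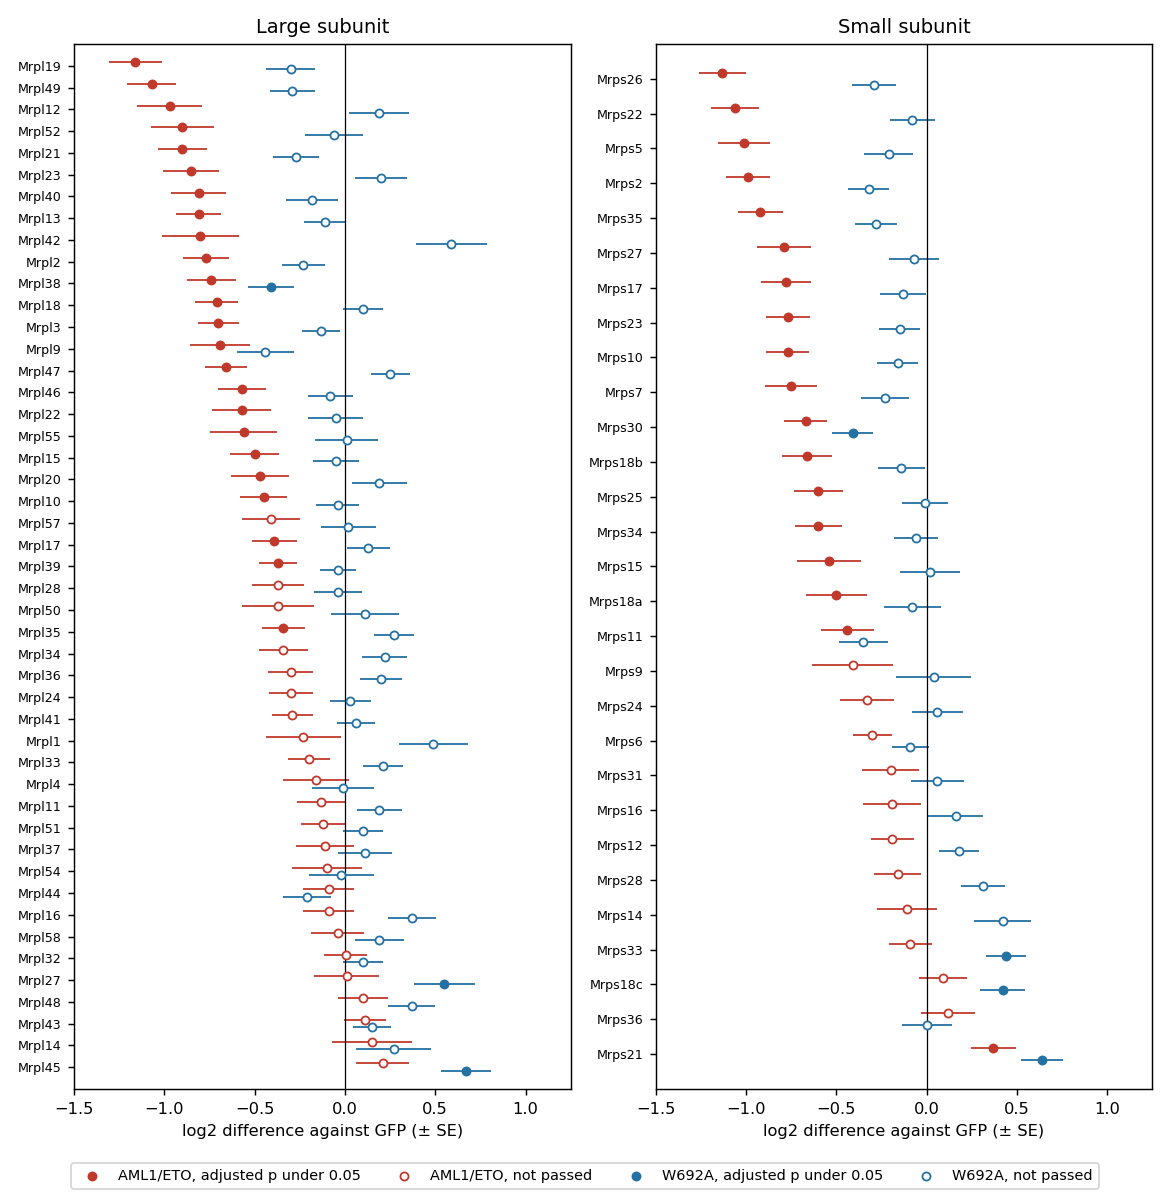
Log2 difference against GFP with its SE for every member of the large (left) and small (right) subunit, for AML1/ETO (red) and W692A (blue). Filled points passed an adjusted p under 0.05 in limma. Most red points lie below 0, with 24 and 17 filled on that side, while the blue points lie around 0.

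**Figure D3:**
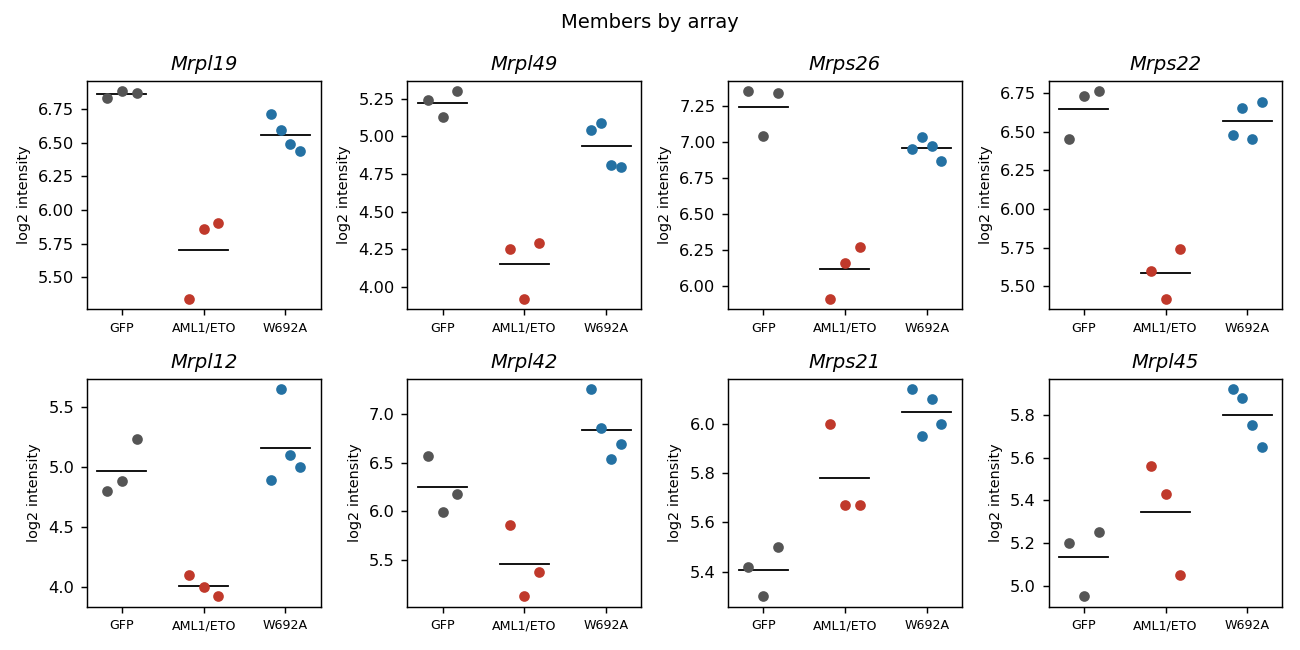
Log2 intensity on each array (points) and group mean (lines) for Mrpl19, Mrpl49, Mrps26, Mrps22, Mrpl12, Mrpl42, Mrps21 and Mrpl45. The y axes differ between panels and do not start at 0. The AML1/ETO arrays are lowest in the first 6 panels, and for Mrps21 and Mrpl45 the W692A mean is the highest.

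The sequences before the start sites of members that moved together are shown as an aid to reading these falls. RefSeq promoter windows on GRCm38.p6, from 250 bases before to 50 after the start, were at hand for 67 of the 76 members, 73 windows in all. Mrpl4, Mrpl13, Mrpl15, Mrpl19, Mrpl38, Mrpl54, Mrps28, Mrps34 and Mrps35 had none. The windows of Mrpl49 (chr19:6057706-6058005, minus strand), Mrps26 (chr2:130563507-130563806, plus strand) and Mrps22 (chr9:98601630-98601929, minus strand) belong to members with the largest falls. That of Mrpl46 (chr7:78783040-78783339, minus strand) also holds the start of Mrps11, which runs the other way, and Mrps21 (chr3:95871465-95871764, minus strand) is the member called higher. Capitals mark exact matches to the motifs named after the sequences, on either strand, 5′ to 3′.
Mrpl49: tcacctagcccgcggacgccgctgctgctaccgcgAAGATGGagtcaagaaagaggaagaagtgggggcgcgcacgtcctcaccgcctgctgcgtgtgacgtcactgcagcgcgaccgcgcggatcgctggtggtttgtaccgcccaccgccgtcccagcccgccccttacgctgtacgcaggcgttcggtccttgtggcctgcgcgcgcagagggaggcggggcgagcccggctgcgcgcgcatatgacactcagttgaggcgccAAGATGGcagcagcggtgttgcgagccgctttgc
Mrps26: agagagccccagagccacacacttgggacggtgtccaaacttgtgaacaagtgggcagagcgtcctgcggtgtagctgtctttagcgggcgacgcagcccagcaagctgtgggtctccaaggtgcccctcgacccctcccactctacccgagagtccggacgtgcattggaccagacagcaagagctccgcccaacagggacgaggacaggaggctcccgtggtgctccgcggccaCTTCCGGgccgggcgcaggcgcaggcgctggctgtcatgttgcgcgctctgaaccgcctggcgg
Mrps22: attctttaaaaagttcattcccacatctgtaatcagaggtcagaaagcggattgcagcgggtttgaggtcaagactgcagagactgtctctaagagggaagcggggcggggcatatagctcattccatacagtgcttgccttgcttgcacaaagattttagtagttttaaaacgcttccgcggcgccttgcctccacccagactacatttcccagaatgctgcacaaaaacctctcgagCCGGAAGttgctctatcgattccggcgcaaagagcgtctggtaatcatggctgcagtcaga
Mrpl46: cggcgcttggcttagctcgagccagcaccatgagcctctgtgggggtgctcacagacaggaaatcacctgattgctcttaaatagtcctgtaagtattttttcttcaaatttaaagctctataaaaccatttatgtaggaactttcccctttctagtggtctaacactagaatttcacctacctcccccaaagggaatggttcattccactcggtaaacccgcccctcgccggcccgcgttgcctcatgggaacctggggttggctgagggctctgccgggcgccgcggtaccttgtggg
Mrps21: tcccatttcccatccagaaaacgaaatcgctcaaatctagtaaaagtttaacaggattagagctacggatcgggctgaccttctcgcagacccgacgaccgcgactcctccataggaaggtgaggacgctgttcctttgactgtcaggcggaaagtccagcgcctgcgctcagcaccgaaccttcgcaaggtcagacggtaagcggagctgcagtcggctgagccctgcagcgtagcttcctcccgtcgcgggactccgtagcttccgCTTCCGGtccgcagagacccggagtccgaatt

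The letters CCGGAAG, which GABP and other ETS factors can bind, were in the windows of 25 of 67 members (37.3%), against 22.6% of 6839 measured genes above the bound and 9.93% of all 27025 genes with a window. They stood in the windows of Mrps26 and Mrps22, which fell, and of Mrps21, which was called higher. Of the 25 members with this motif 12 fell with AML1/ETO, and of the 42 without it 23 fell. The motif AAGATGG (YY1) was in 13 members (19.4%, against 9.50% of genes above the bound) and occurs at 2 places in the window of Mrpl49. The motif GCATGCGC (NRF1) was in 8 (11.9% against 6.78%). The RUNX motif TGTGGT, the letters that AML1 can bind, was in 9 members (13.4%), against 14.6% of genes above the bound and 18.9% of all genes. The E-box CACGTG was in 5 (7.46% against 12.7%). Both strands were searched, and a match is a description of the letters only.

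Many members start close to a gene that runs the other way. A divergent neighbour within 1000 bases was present for 25 of 67 members (37.3%), against 21.1% of the measured genes above the bound. Mrpl46 and Mrps11 start 42 bases apart and both fell with AML1/ETO (log2 difference -0.57, adjusted p = 0.00408, and -0.44, adjusted p = 0.0356). The fall of Mrps11 was lost without any single AML1/ETO array and without GFP replicate 1 or 3. Of the 23 other neighbours 7 fell (30.4%), 2 rose and 14 did not pass, beside 15.8% of all genes and 29.9% of genes above the bound called lower. Of the 13 neighbours above the bound 6 fell and 1 rose. Neighbours did not always share a call. Mrpl18 (-0.71) and Tcp1 (-0.60) both fell, whereas Mrpl43 (0.11) did not pass beside Twnk (-1.18), the mitochondrial DNA helicase. Mrpl2 fell (-0.77) beside Klc4, which rose (1.10). These neighbours were named after their values were seen.

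The second comparison set W692A against GFP, using the same GFP arrays as the first. Few members differed. In the large subunit 2 rose, 1 fell and 44 did not pass, and in the small subunit 3 rose, 1 fell and 25 did not pass. Over all genes tested 5.45% were called higher and 9.07% lower, and among genes above the bound 10.3% were called higher and 16.7% lower. The 5 higher and 2 lower of 76 members thus lay near or below the background. The median log2 difference was 0.10 in the large and -0.07 in the small subunit. The sign of the small subunit median turned under further quantile normalization (0.02) and with the Gapdh 3′ minus 5′ signal as a covariate (0.04). All W692A arrays lay above all GFP arrays for 12 members and below them for 8, where 9.85% and 12.5% of all genes did so. Of the 8301 genes above the bound, 1217 lay above and 1818 below in this way.

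The members that rose with W692A were Mrpl45, Mrpl27, Mrps21, Mrps18c and Mrps33. Mrpl45 gave 5.92, 5.88, 5.75 and 5.65 with W692A, all above its GFP arrays. It was 1.59-fold higher (0.67 ± 0.137, adjusted p = 0.00388). Mrps21, also with no overlap, was 1.56-fold higher (0.64 ± 0.117, adjusted p = 0.00172). Its other probe set, which lay below the bound with a mean of 0.90, was called the other way (-0.62, adjusted p = 0.00734 over all probe sets).

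Mrps33 rose by 0.44 (adjusted p = 0.0132), Mrpl27 by 0.55 (adjusted p = 0.0419) and Mrps18c by 0.42 (adjusted p = 0.0356). Mrpl38 and Mrps30 each fell by 0.41 (adjusted p = 0.0422 and 0.0241), and both had also fallen with AML1/ETO. None of these 7 calls passed with the Gapdh covariate, and that signal differed between the GFP and W692A arrays without overlap. Its part in these calls was not tested further. Single arrays mattered too. The call of Mrpl27 was lost without any 1 GFP array, W692A replicate 1 or 2, or AML1/ETO replicate 2, and that of Mrps18c without replicate 1 or 2 of GFP or W692A. The call of Mrpl38 was lost without any 1 GFP array, W692A replicate 1, 2 or 3, or AML1/ETO replicate 2, and that of Mrps30 without GFP replicate 2 or 3 or W692A replicate 2 or 4.

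The third comparison set W692A against AML1/ETO, using the arrays of the first 2 comparisons again. Most members were higher with W692A. In the large subunit 30 were higher and 17 did not pass, and in the small subunit 18 were higher and 11 did not pass (limma, adjusted p under 0.05). No member was lower, also at an unadjusted p under 0.05. Over all genes tested 20.7% were called, 9.61% higher and 11.1% lower, and among genes above the bound 19.6% higher and 19.2% lower. The 48 members higher made 63.2% of the 76. The median log2 difference was 0.48 in the large and 0.52 in the small subunit, beside 0.01 over genes above the bound. All W692A arrays lay above all AML1/ETO arrays for 55 members, where 13.7% of all genes did so. Of the 8301 genes above the bound, 1915 did so.

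Mrpl42, a mitochondrial protein of the large subunit, had the largest difference. It gave 6.57, 5.99 and 6.18 with GFP, 5.86, 5.12 and 5.37 with AML1/ETO, and 7.26, 6.86, 6.54 and 6.69 with W692A. The highest AML1/ETO array lay below the lowest GFP and W692A arrays, and the GFP and W692A arrays overlapped. It was 2.62-fold higher with W692A than with AML1/ETO (1.39 ± 0.198, adjusted p = 0.000127). Its fall with AML1/ETO against GFP (-0.80, adjusted p = 0.0094) did not pass without AML1/ETO replicate 2 or GFP replicate 1.

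Mrpl12 was 2.22-fold higher with W692A (1.15 ± 0.167, adjusted p = 0.000141) and Mrpl23 was 2.07-fold higher (adjusted p = 9.67e-05). In the small subunit Mrps22 had the largest difference, 1.98-fold (0.98 ± 0.124, adjusted p = 4.46e-05). Mrpl47 differed by 0.91 (adjusted p = 2.68e-05). Over the members, the W692A mean lay above both other group means for 39, between them for 36 and below both for 1. Mrps30 and Mrpl38, lower with both constructs, did not pass here (0.26, adjusted p = 0.128, and 0.33, adjusted p = 0.0852).

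For 42 members the array carries further probe sets, 80 in all, 36 of them above the bound. Of those 36, 22 were called lower with AML1/ETO against GFP and none higher. The share over all probe sets was not worked out. By gene, 29.9% of genes above the bound were called lower. Mrpl1 was among the members for which the choice of probe set mattered, named after its values were seen. Its brighter probe set did not pass (-0.23), and its second, also above the bound with a mean of 3.81, fell (-1.45, adjusted p = 1.2e-05 over all probe sets). Mrpl28, Mrpl41, Mrpl44, Mrpl50, Mrps9 and Mrps24 likewise had a brightest probe set that did not pass and another above the bound that fell. For Mrpl13, Mrpl39 and Mrps5 the brightest fell and another above the bound did not pass. Mrps21 was the only member with calls in opposite directions, in the comparison of W692A with GFP.

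Other genes of mitochondrial protein synthesis, chosen as lists of known function, were set beside the members. Among genes above the bound 29.9% were called lower with AML1/ETO against GFP. With W692A against GFP 16.7% of them were called lower and 10.3% higher. Of 4 ribosomal proteins with other symbols, 3 fell with AML1/ETO: Dap3 (-0.92), Ptcd3 (-0.85) and Gadd45gip1 (-0.57). Of 19 genes for assembly of the ribosome and modification of its RNA, 10 fell with AML1/ETO and 7 with W692A against GFP. The GTPases Mtg1 and Noa1, which act in assembly, fell by 1.70 and 1.47 with AML1/ETO and by 0.78 and 0.73 with W692A. Of 13 translation factors 6 fell with AML1/ETO, among them Guf1 (-1.26) and the elongation factor Gfm1 (-1.21), and with W692A 2 fell and 2 rose.

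Of 16 mitochondrial aminoacyl-tRNA synthetases, which charge the transfer RNAs, 9 fell with AML1/ETO and 4 with W692A. Those shares were 56% and 25%, beside 29.9% and 16.7% of genes above the bound. Rars2 fell by 1.55 with AML1/ETO and by 0.92 with W692A, and Nars2 by 1.05 and 0.73. Of 11 genes for mitochondrial DNA maintenance and transcription 8 fell with AML1/ETO and 3 with W692A, among them the topoisomerase Top1mt (-1.39 and -0.45) and Twnk (-1.18 and -0.44). The shares of this list called lower were 72.7% and 27.3%. The counts with AML1/ETO include genes that lay below the bound on all arrays, 2 synthetases (Ears2 and Iars2) and 1 each of the assembly genes (Mrm2), translation factors (Lrpprc) and DNA genes (Mterf1a). With W692A they include Iars2. Median log2 differences with W692A were -0.26 for the assembly genes, -0.23 for the synthetases and -0.16 for the DNA genes, where the large and small subunit medians were 0.10 and -0.07. Whether these lists differ from the members was not tested.

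Among 9 nuclear regulators of mitochondrial genes, Ppargc1b (-1.25), Myc (-1.23) and Gabpb1 (-0.59), a GABP subunit, fell with AML1/ETO. These falls made 33.3% of the list, near the 29.9% of genes above the bound. Ppargc1a was called higher (adjusted p = 0.00105). Its signal was above the bound on 2 of 3 AML1/ETO arrays (2.48, 1.67 and 3.10) and on no GFP array. With the GFP arrays set at the bound, the AML1/ETO mean was 1.30-fold higher, an estimate that sets no minimum for the rise. With W692A against GFP, Myc (-0.87) and Gabpb1 (-0.57) fell and Ppargc1b did not pass (-0.07). Falls made 22.2% of the list there, beside 16.7% of genes above the bound.

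Of 48 cytosolic ribosomal protein genes 5 fell with AML1/ETO and 43 did not pass, with a median log2 difference of -0.07. Of 82 subunits of oxidative phosphorylation 13 fell and 5 rose, with a median of -0.05. The shares called lower in these 2 lists, 10.4% and 15.9%, were below the 29.9% of genes above the bound. With W692A against GFP, 16 of the 82 rose and 2 fell, with a median of 0.16. Those shares were 19.5% and 2.44%, beside 10.3% and 16.7% of genes above the bound. The array means of the 82 were 7.27 to 7.37 with GFP, 7.19 to 7.29 with AML1/ETO and 7.44 to 7.52 with W692A.

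**Figure D4:**
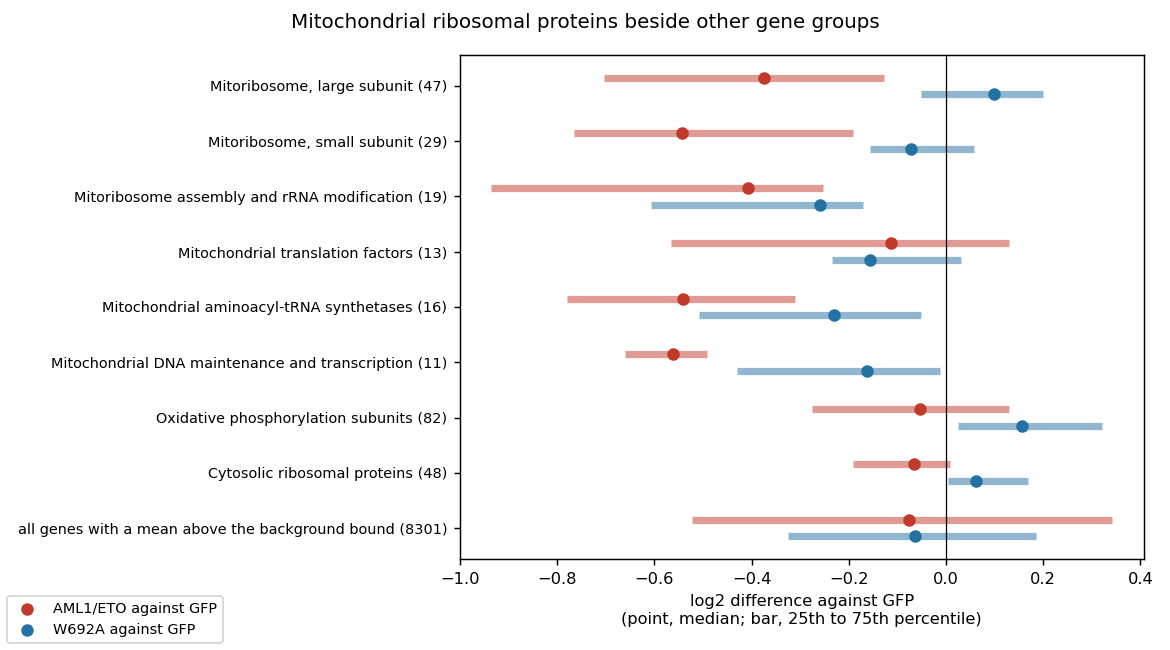
Median log2 difference against GFP (points) and the range from the 25th to the 75th percentile of genes (bars) for both subunits, other mitochondrial gene groups, cytosolic ribosomal proteins and all 8301 genes above the background bound; the number of genes is in parentheses. The small subunit median with AML1/ETO is -0.54 and the cytosolic ribosomal protein median is -0.07.

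Genes of cell division and of other blood lineages moved between the same groups. Of 19 cell division genes 18 fell with AML1/ETO, with a median log2 difference of -1.03, and 3 fell with W692A against GFP. Those shares were 94.7% and 15.8%, beside 29.9% and 16.7% of genes above the bound. The mean of the 19 was 7.34 to 7.47 on the GFP arrays, 6.29 to 6.45 with AML1/ETO and 7.12 to 7.26 with W692A. The mean over 10 neutrophil genes was 5.62 to 6.14 with GFP, 4.64 to 5.70 with AML1/ETO and 4.84 to 5.34 with W692A, and that over 7 monocyte and macrophage genes was 4.29 to 4.55, 5.35 to 5.81 and 5.15 to 5.41. Of 13 stem and progenitor genes 9 rose and 2 fell with AML1/ETO, a count that includes Kit, which lay below the bound on all arrays. Among genes above the bound 21.6% were called higher and 29.9% lower. The mean of the 13 was 4.58 to 4.68, 5.82 to 5.87 and 5.33 to 5.54. The 8 megakaryocyte genes had means of 4.77 to 5.10, 3.83 to 4.02 and 3.64 to 4.06, and the 8 mast cell, basophil and eosinophil genes 5.32 to 5.94, 5.34 to 6.38 and 4.73 to 5.02. The means of 7 erythroid genes were 2.08 to 2.44, 1.61 to 1.72 and 1.78 to 1.94, and those of 5 T and NK cell genes 3.18 to 3.45, 2.62 to 2.69 and 2.78 to 2.88. Those of 6 B cell genes were 1.79 to 1.87, 1.48 to 1.62 and 1.44 to 1.63. Most genes of these last 3 lists were dim: 2 of 7 erythroid, 2 of 5 T and NK cell and 1 of 6 B cell genes had means above the bound. The part of any of the lists in the fall of the mitochondrial ribosome genes was not tested.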

How the data were processed

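The authors deposited a log2 intensity for every probe set on every array, from RMA (version not given in the sources used here), per the submitters' processing notes. Base 2 was inferred: taken as a natural logarithm, the highest value of 12.77 means 350219, more than the 65535 a 16-bit scanner records. RMA sets all arrays to 1 distribution, which hides differences in total RNA.

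Among 45101 probe sets, the 34945 with 1 gene symbol were used and the 932 with several were left out. Symbols were updated by gene identifier to GRCm38.p6. The probe set with the highest mean per gene gave 18193 genes. Groups were tested with limma 3.58.1 (R 4.3.3; lmFit, eBayes) in 1 fit of 3 groups (residual degrees of freedom 7, prior 7.53). Benjamini-Hochberg adjustment covered every gene, and calls used 0.05; the script was tested on simulated data. The number of arrays limits the precision.

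Members and lists were chosen with earlier results of these data known. Named members were, per comparison and subunit, up to 6 falls and 4 rises among called members without overlap, the 3 brightest and 3 dimmest with GFP, Mrps18a, Mrps18b, Mrps18c, Mrps30, Mrps36, members with opposed probe sets, and up to 2 of each list per direction. Other members are named by their place in the ribosome, after their values were seen. Alternatives were other normalizations, probe set means, variance priors, array weights, covariates and leaving out each array.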

Additional observations from a re-analysis of the deposited data

Results flagged for a closer look

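Mrpl41 on W692A replicate 1 gave 9.40, below the other 3 W692A arrays at 9.50 to 9.51. The gap stood out because those 3 lie so close together, and the GFP arrays of Mrpl41 spread from 9.35 to 9.53. Of 36 groups of 4 arrays examined this was the 1 that stood out, and chance marks about 1 group in 20.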

How the results depend on the processing

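Over 99 results for single members and 20 alternatives, 1820 values kept their side of the threshold, 111 lost a call and 48 gained one. A called result turned its sign in 1 value. Estimates near 0 that did not pass could also change sign, and such changes were counted among the 1820. That 1 was Mrps21 in AML1/ETO against GFP, -0.0196 with the mean of probe sets. Where no value shows it, the cause of a change was not tested.

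For AML1/ETO against GFP, members called lower numbered 15 in the large subunit at a change of at least 1.5-fold. Leaving out 1 array gave 16 to 24 in the large (16 without GFP replicate 3) and 14 to 17 in the small subunit. The Gapdh covariate left 18 and 13, and the spike-in covariate 17 and 13. The 1 member higher became 0 with either covariate, the fit of 2 groups, the mean of probe sets, the mean-dependent prior, median subtraction or at least 1.5-fold, and was 0 to 1 without 1 array. The large subunit median was -0.31 with the spike-in covariate and -0.46 to -0.34 without 1 array. The small subunit median was -0.50 with the Gapdh covariate, -0.44 with the mean of probe sets, -0.60 with median subtraction and -0.58 to -0.50 without 1 array.

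For W692A against GFP, large subunit members lower were 0 with the Gapdh covariate, array weights, quantile normalization, mean of probe sets, mean-dependent prior, median subtraction or at least 1.5-fold, 2 with the spike-in covariate or subunits taken from structure, and 0 to 1 without 1 array. Those higher were 0 with the Gapdh covariate, 1 with array weights, mean of probe sets, spike-in covariate or at least 1.5-fold, 6 with quantile normalization and 1 to 4 without 1 array. Small subunit members lower were 0 with the Gapdh covariate, quantile normalization, at least 1.5-fold or subunits from structure, and 0 to 2 without 1 array. Those higher were 0 with the Gapdh covariate, 1 at 1.5-fold and 2 to 4 without 1 array. The large subunit median was -0.000226 with the mean of probe sets and 0.05 to 0.11 without 1 array. The small subunit median was 0.0419 with the Gapdh covariate, 0.0162 with quantile normalization and -0.11 to -0.03 without 1 array.

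For W692A against AML1/ETO, 14 large and 10 small subunit members were higher at 1.5-fold, and 23 to 31 and 14 to 19 without 1 array. The medians were 0.37 and 0.43 with the mean of probe sets, 0.55 and 0.59 with median subtraction, and 0.45 to 0.50 and 0.47 to 0.54 without 1 array.

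Same-numbered arrays were not treated as pairs in the main fit. The deviations of replicate 1 arrays from the group means correlated at 0.264 to 0.457 between groups. For replicate 2 the range was -0.0336 to 0.00711, and for replicate 3 it was -0.127 to 0.339. In another group, 8 of 18 best matches had the same number. Whether the replicate 1 arrays shared a batch was not tested. With the replicate number as a block, members lower with AML1/ETO were 24 and 16, and members higher with W692A than with AML1/ETO were 30 and 19. Signals near the background bound, as for Mrpl37, limit which falls could be seen.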
